A study of Mus musculus with 10 samples.

Results

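The NKG2D ligand genes MICA, MICB, ULBP1, ULBP2, ULBP3, RAET1E, RAET1G and RAET1L were followed across RNA-seq libraries of LNCaP xenograft tumours. They were taken by gene symbol, and all 8 were found among the 58735 human genes of the count table, each on a single row. LNCaP is an established androgen-sensitive line of human prostate cancer cells, grown here under the skin of mice labelled NOD.Cg-Prkdcscid Il2rgtm1Wjl/SzJ, an immunodeficient strain that lacks mouse T, B and NK cells and keeps mouse myeloid cells. Each of the 5 control tumours followed weekly injections of control sip-T into the peritoneum, in 100 µl of PBS. Sip-T is a human blood cell product primed with prostatic acid phosphatase fused to GM-CSF. The 5 IL-15 tumours came from mice given sip-T in the same volume with 1 µg of rhIL-15, recombinant human interleukin that supports NK and T cell survival, and all tumours were collected on day 7 after the last injection. The design text speaks both of sip-T treated with IL-15 and of IL-15 injected under the skin, with PBS for control mice, and these cannot be told apart here. Neither mouse age and sex nor the number of sip-T donors was stated. The comparison asks whether adding IL-15 to sip-T went with other ligand levels in the tumour.

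NKG2D is an activating receptor of NK cells and of many CD8 T cells, encoded by KLRK1, and it signals in human cells through the adaptor DAP10. Its ligands are distant relatives of MHC class I heavy chains that present no peptide and need no β2-microglobulin, and they are induced by heat shock, DNA damage, viral infection and oncogenic growth. MICA and MICB carry an immunoglobulin-like α3 domain and span the membrane, whereas ULBP1, ULBP2 and ULBP3 lack that domain and are held by a glycolipid (GPI) anchor. Tumours can release the ligands from the surface with metalloproteases, and prostate cancer is a setting in which released MIC protein has been described.

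Total counts, in units of 1e6 reads, were 15.6 ± 1.15 for control and 15.0 ± 2.44 for IL-15 libraries (SD, n = 5 each). A floor of 3 counts therefore stood at 0.155 to 0.221 CPM, the counts of a gene per 1e6 reads of its library, for counting error only. CPM values of single genes and of marker sums were scaled by TMM, which adjusts library sizes for composition. LNCaP identity was plain: all 10 prostate epithelial markers were tested, among them KLK3, the PSA gene, at 4729 ± 1068 (control) against 5567 ± 1332 CPM (IL-15). T cell markers summed to 3.24 to 14.4 CPM among controls and 5.19 to 33.5 CPM with IL-15, and NK cell markers to 1.04 to 12.3 and 2.65 to 26.9 CPM, with none of the 22 listed genes at 0 in all libraries. GNLY, NKG7 and PRF1 had the highest means of the NK cell list (4.66, 1.65 and 1.51 CPM over 10 libraries). KLRF1, NCR1 and NCAM1 had 2, 12 and 18 counts in all. Whether the NK cell sum came from NK or T cells was not tested. Fibroblast and endothelial markers summed to 32.6 to 107 and 53.0 to 89.2 CPM. Most of this sum was COL1A1, VWF and COL3A1, with means of 38.0, 19.1 and 11.2 CPM over 10 libraries. The other listed markers, COL1A2, DCN, CDH5 and PECAM1, had 6, 27, 29 and 44 counts in all. Which cells the sum came from was not tested. No source states whether reads of mouse stroma were removed. In RNA of whole tumours, fewer cells that carry a transcript and less of it per cell cannot be told apart, and surface protein was not measured.

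All 8 genes lie on chromosome 6 (hg38, coordinates of the count table) in a pair of clusters. MICA (ENSG00000204520, 31399784 to 31415315, plus strand) and MICB (ENSG00000204516, 31494881 to 31511124, plus strand) sit in the MHC and span 111 kb together. The remaining 6 lie within 186 kb on the long arm, in the order RAET1E (149883375 to 149898102, minus strand), RAET1G (149916878 to 149923121, minus), ULBP2 (149942000 to 149949235, plus), ULBP1 (149964007 to 149973710, plus), RAET1L (150018334 to 150025532, minus) and ULBP3 (150063150 to 150069095, minus). ULBP2, RAET1G, RAET1L and the pseudogene RAET1K are close copies, so the split of reads among them is uncertain. MICA overlaps the noncoding gene HCP5 on the same strand over 14614 bases. RAET1E overlaps the gene ENSG00000285991 on its own strand over 12637 bases and the antisense gene RAET1E-AS1 (ENSG00000268592), which also reaches into RAET1G, on the other strand. Whether counting used strand is not given, so reads of these partners may be mixed.

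MICA, ULBP1, ULBP2 and ULBP3 carried most of the ligand transcript, and MICA had the highest mean. Levels of different genes were compared as deposited FPKM, which divides counts by gene length. Over 10 libraries MICA stood at 4.66 ± 0.865 FPKM (SD, n = 10), above 64.7% of protein-coding genes. ULBP2 followed at 3.46 ± 1.42, ULBP3 at 2.76 ± 0.979 and ULBP1 at 2.04 ± 0.561 FPKM. RAET1L stood at 0.750 ± 0.518, RAET1G at 0.374 ± 0.179, RAET1E at 0.0946 ± 0.0679 and MICB at 0.0518 ± 0.0717 FPKM. MICB, the closest relative of MICA, lay above 27.0% of protein-coding genes, and its mean lay near the counting floor. The mean of MICA was 89.9 times that of MICB, and 141 times without IL-15 tumour 1, which held 10 of the 24 MICB counts. For scale, B2M, the light chain of MHC class I, had a mean 6.81 times that of MICA.

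Neighbours in this order were compared within libraries by a two-sided exact sign-flip permutation test on log2(FPKM + 0.01), adjusted over 7 pairs by Benjamini-Hochberg. ULBP1 exceeded RAET1L in 9 of 10 libraries (mean log2 ratio 1.69 ± 1.21 SD, exact permutation p = 0.00586, adjusted 0.0205), and RAET1G exceeded RAET1E in 9 of 10 (2.02 ± 1.44, exact permutation p = 0.00391, adjusted 0.0205). The size of the latter step depends on the pseudocount, since it was 1.27 with 0.1 FPKM at the same p. MICA exceeded ULBP2 in 7 of 10 libraries (0.50 ± 0.57), which missed the threshold of 0.05 by a narrow margin (exact permutation p = 0.0215, adjusted 0.0501). The other 4 pairs did not pass, which does not show equal levels. ULBP2 over ULBP3 had 0.31 ± 0.81 (6 of 10 libraries, exact permutation p = 0.266, adjusted 0.266). ULBP3 over ULBP1 had 0.40 ± 0.57 (8 of 10, exact permutation p = 0.0586, adjusted 0.103). RAET1L over RAET1G had 0.82 ± 1.45 (8 of 10, exact permutation p = 0.111, adjusted 0.130). RAET1E over MICB had 1.35 ± 2.16 (7 of 10, exact permutation p = 0.0898, adjusted 0.126). Of the 7 steps in the order, those from ULBP1 to RAET1L and from RAET1G to RAET1E were the ones that passed. The order came from the FPKM values of the same 10 libraries. Which genes were paired, and which was named first, thus depended on the values tested. RAET1L, RAET1G and RAET1E have close copies or overlapping genes, as given above. The part of lost or mixed reads in these steps was not tested.

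**Figure D1:**
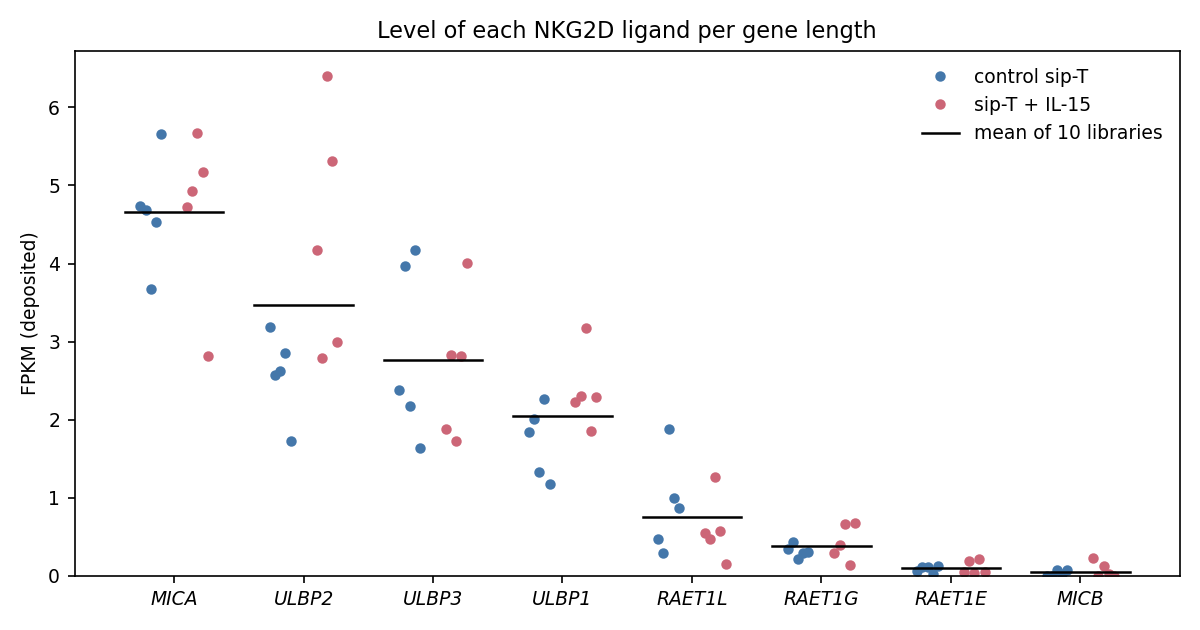
Deposited FPKM (vertical axis) of each ligand gene (horizontal axis, ordered by mean), with a point per library (blue control sip-T, red sip-T + IL-15) and a black line at the mean of 10 libraries. MICA has the highest mean, at 4.66 FPKM, and RAET1L, RAET1G, RAET1E and MICB have means of 0.750 FPKM or less.

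MICA, ULBP1, ULBP2 and ULBP3 together made up 81.2% to 94.1% of the summed FPKM of the 8 genes, with a median of 92.3%. The make-up differed from tumour to tumour. MICA was the highest ligand in all 5 control tumours and in IL-15 tumours 1 and 2. ULBP2 was the highest in IL-15 tumours 3 and 4, with 33.6% and 33.0% of the sum, and ULBP3 in IL-15 tumour 5, with 30.9%. The MICA share ran from 21.7% in IL-15 tumour 5 to 49.0% in control tumour 5. RAET1L held 15.6% in control tumour 3 and 1.15% to 7.48% in the other 9 tumours. The summed FPKM was 13.2 ± 1.47 in control and 15.2 ± 2.43 in IL-15 tumours, with the highest sum, 19.1, in IL-15 tumour 3.

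**Figure D2:**
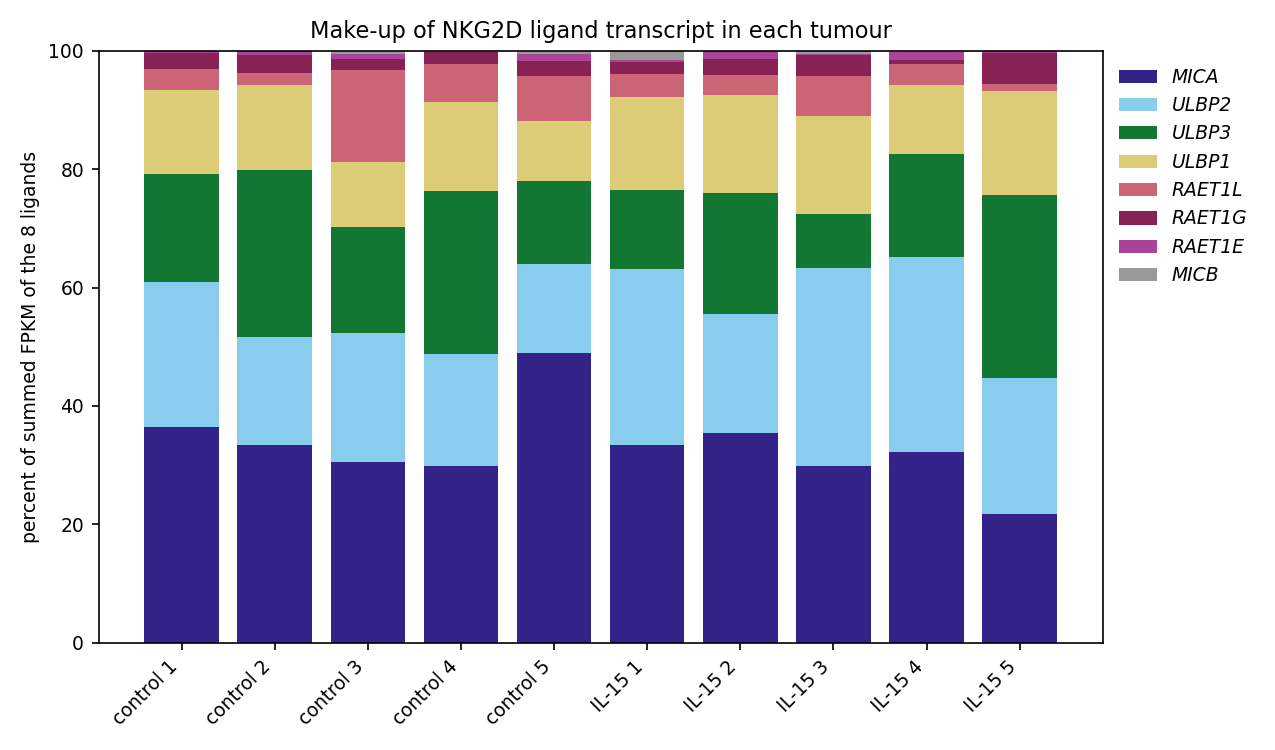
Stacked bars give the percent of the summed FPKM of the 8 ligand genes (vertical axis) that each gene holds in each tumour (horizontal axis). MICA takes 21.7% to 49.0%, and ULBP2 takes 33.6% and 33.0% in IL-15 tumours 3 and 4.

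No ligand passed the test between IL-15 and control tumours, and ULBP2 had the smallest edgeR p, with a higher mean in IL-15 tumours. Of 16913 genes tested with edgeR's quasi-likelihood test, 0% had a Benjamini-Hochberg adjusted p under 0.05 (1092 genes had an unadjusted p under 0.05, and DESeq2 called 15 genes, 0.0714% of those with an adjusted p). Of the 8 ligands, 5 were abundant enough for the fit, and 0 were called by edgeR, DESeq2 or limma voom. ULBP2 had an unadjusted edgeR p under 0.05 with a higher level in IL-15 tumours, which makes 1 of 5 ligands, and 3.03% of all tested genes had such a p in that direction, 3.43% in the other and 6.46% in either. By the exact permutation test of single genes, 0 of 8 ligands had an unadjusted p under 0.05, against 5.57% of tested genes. In 0 of 8 ligands did the groups separate without overlap, against 0.662% of tested genes. The median log2 fold change of the 5 was 0.02, beside -0.01 over all tested genes. Each ligand was also tested by itself on log2(CPM + 0.1) with an exact permutation test, two-sided, that runs through every way of dividing the tumours 5 and 5, adjusted over 8 genes. The smallest p this design allows is 0.00794. After adjustment over 8 genes, a single differing ligand could therefore not reach an adjusted p below 0.05. Nothing in the labels says that the tumours came from separate mice, so the p-values cover only variation among these libraries, which may be technical.

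ULBP2, a GPI-anchored ligand, measured 4.79, 3.80, 3.82, 4.17 and 2.57 CPM in control tumours 1 to 5. It measured 6.25, 4.13, 9.77, 7.93 and 4.40 CPM in IL-15 tumours 1 to 5. IL-15 tumours 1, 3 and 4 lay above every control tumour, while IL-15 tumours 2 and 5 lay among the controls. The means were 3.83 ± 0.812 and 6.50 ± 2.39 CPM (SD, n = 5 each), a log2 fold change of 0.76 ± 0.28 (SE) with an edgeR adjusted p = 0.758. The exact permutation test gave p = 0.0556, adjusted 0.222. Without IL-15 tumour 3 the log2 fold change was 0.57.

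ULBP1, bound by the UL16 protein of human cytomegalovirus as its name records, showed the same direction with a smaller size. Its values were 6.45, 6.90, 4.50, 7.71 and 4.06 CPM in control tumours 1 to 5 and 7.77, 7.95, 11.3, 6.43 and 7.84 CPM in IL-15 tumours 1 to 5. IL-15 tumours 1, 2, 3 and 5 lay above every control tumour, by a small margin except in tumour 3, and IL-15 tumour 4 lay within the control range. The log2 fold change was 0.48 ± 0.24 (edgeR adjusted p = 0.773, exact permutation p = 0.0556, adjusted 0.222, n = 5 each). It was 0.34 without IL-15 tumour 3.

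MICA had nearly the same mean in both groups. It measured 12.6, 12.3, 9.48, 11.7 and 14.9 CPM in control tumours 1 to 5 and 12.5, 12.9, 15.3, 13.6 and 7.33 CPM in IL-15 tumours 1 to 5. The control range lay within the IL-15 range, whose lowest and highest values were those of tumours 5 and 3. The log2 fold change was 0.02 ± 0.21, with a sign that changed with the scaling and the test (edgeR adjusted p = 0.992, exact permutation p = 0.984, adjusted 0.984, n = 5 each).

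ULBP3 also overlapped throughout, at 2.62, 4.30, 2.32, 4.46 and 1.78 CPM in control tumours 1 to 5 and 2.06, 3.07, 1.93, 3.07 and 4.32 CPM in IL-15 tumours 1 to 5. Control tumours 2 and 4 and IL-15 tumour 5 were high, and the other 7 lay between 1.78 and 3.07 CPM. The log2 fold change was -0.10 ± 0.33 (edgeR adjusted p = 0.967), and the difference in the exact permutation test turned to 0.01 with CPM on library size alone. RAET1L, known as ULBP6 at the protein level, measured 0.702, 0.423, 2.73, 1.45 and 1.28 CPM in control tumours 1 to 5 and 0.825, 0.689, 1.93, 0.857 and 0.220 CPM in IL-15 tumours 1 to 5. Tumour 3 was the highest of each group. Its log2 fold change of -0.53 ± 0.54 (edgeR adjusted p = 0.872) rested on single tumours, since it was -0.09 without control tumour 3 and -1.001 without IL-15 tumour 3.

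MICB, RAET1E and RAET1G were too scarce for the fit across all genes. MICB had counts of 0, 0, 3, 1 and 3 in control tumours 1 to 5 and 10, 0, 6, 1 and 0 in IL-15 tumours 1 to 5, so that 4 of 10 libraries held none. A count of 0 allows up to 0.155 CPM in the deepest of these libraries and 0.221 CPM in the shallowest. The highest counts stood in IL-15 tumours 1 and 3, which also held the highest sums of T and NK cell markers (60.4 and 42.1 CPM), and the part of those cells in the MICB counts was not tested. RAET1E, which encodes ULBP4, had 20 counts in control and 28 in IL-15 tumours, of which 12 and 10 stood in IL-15 tumours 2 and 4. RAET1G, which encodes ULBP5, had 39 and 55 counts, with 18 and 15 in IL-15 tumours 3 and 5. The exact permutation test gave adjusted p = 0.952 for each of the 3 genes (n = 5 per group). Alone, none of them could have passed this adjusted test.

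**Figure D3:**
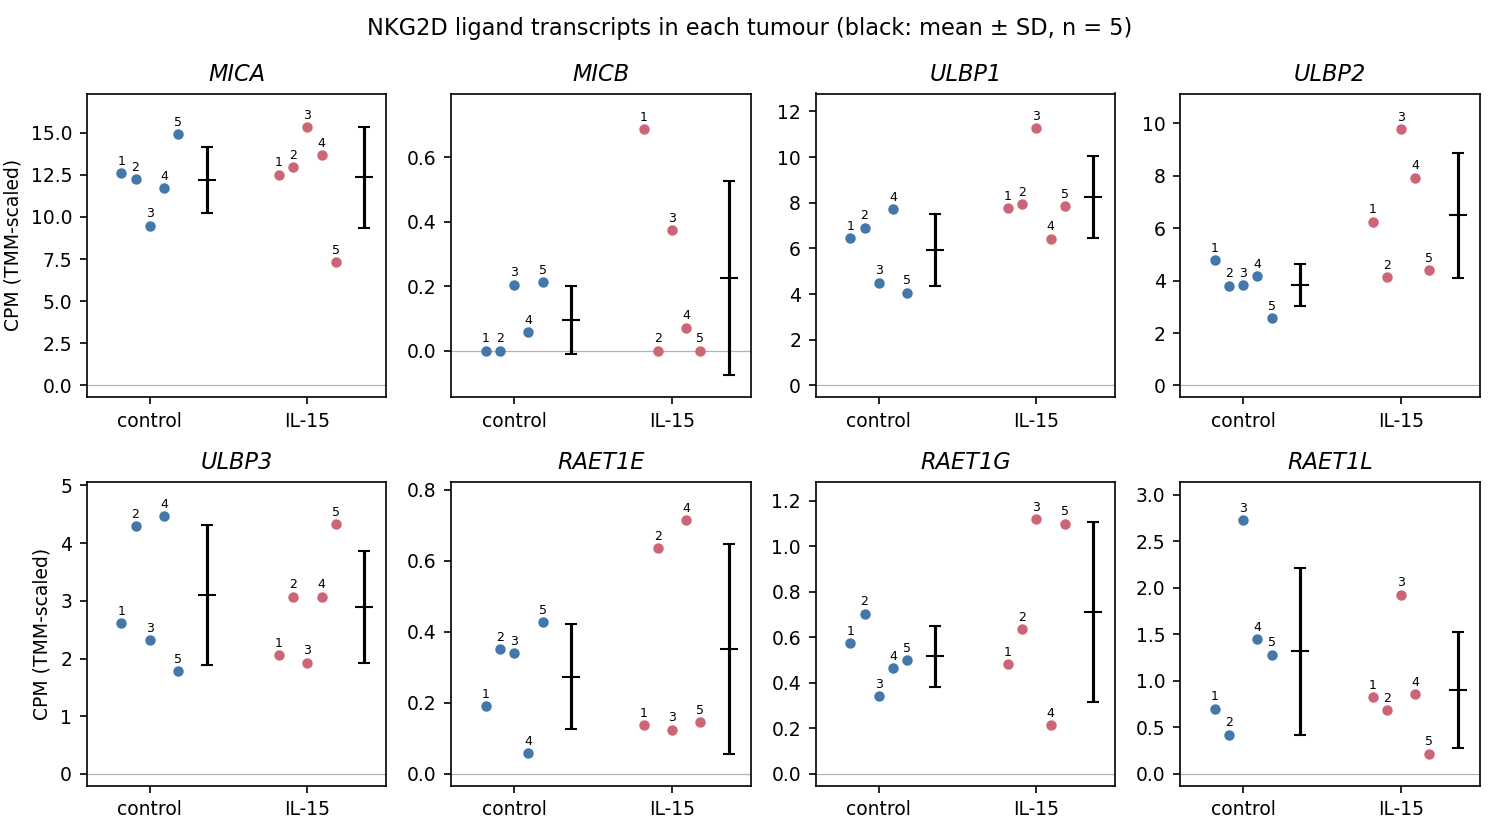
Each panel plots the TMM-scaled CPM of a ligand gene (vertical axis) in control sip-T (blue) and sip-T + IL-15 (red) tumours, with replicate numbers beside the points and the mean ± SD of 5 libraries in black. For ULBP2, IL-15 tumours 1, 3 and 4, at 6.25 to 9.77 CPM, lie above every control tumour, and in all 8 panels the groups overlap.

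The ligands differed in how much they varied between tumours. Over the 10 libraries the coefficient of variation was 19.4% for MICA, 28.3% for ULBP1, 34.7% for ULBP3, 42.4% for ULBP2 and 68.4% for RAET1L, where counting error at the mean count accounts for 7.3%, 9.6%, 14.8%, 11.3% and 24.2%. The highest tumour exceeded the lowest 2.09-fold for MICA, 3.81-fold for ULBP2 and 12.4-fold for RAET1L. The last value rested on the 3 counts of IL-15 tumour 5, without which it was 6.46-fold.

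Ratios of ligands within a library, chosen after the values were seen, were compared between groups for all 10 pairs of the 5 genes with a mean of at least 1 CPM. The MICA to ULBP2 ratio had the smallest p, with a log2 ratio of 1.66 ± 0.49 in control and 0.95 ± 0.40 in IL-15 tumours (exact permutation p = 0.0317, adjusted over 10 pairs 0.270, n = 5 each). The other 9 pairs had adjusted exact permutation p-values from 0.270 to 0.913. With 10 pairs, a single differing pair could not reach an adjusted p below 0.0794 in this design, so these tests do not show whether the ligands differed in their response.

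No pair of ligands was shown to vary together across tumours. Of 10 pairs correlated over 10 libraries on log2(CPM + 0.1), 0 passed after adjustment in permutation tests. ULBP1 and ULBP2, neighbours on chromosome 6, had the highest value (Pearson r = 0.70, permutation p = 0.0251, adjusted 0.251, Spearman rho = 0.48, permutation p = 0.166, adjusted 0.553). Without the 2 tumours farthest from the median of ULBP1, r was 0.48. As deviations from the group means it was 0.50 (permutation p = 0.145, adjusted 0.443, rho = 0.37, permutation p = 0.296, adjusted 0.551). RAET1L and ULBP3 had the lowest (r = -0.58, permutation p = 0.0802, adjusted 0.398, rho = -0.49, permutation p = 0.156, adjusted 0.553), and r was -0.81 without the 2 tumours farthest from the median of ULBP3. MICA and ULBP3 followed (r = -0.52, permutation p = 0.119, adjusted 0.398, rho = -0.64, permutation p = 0.0540, adjusted 0.540, r = -0.76 without the 2 farthest tumours). As deviations from the group means, RAET1L and ULBP3 had r = -0.63 and MICA and ULBP3 r = -0.53, and 0 of 10 pairs passed after adjustment. The labels name no batch.

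ULBP2 tended to be higher in tumours with more lymphocyte transcripts, a relation that did not pass adjustment. The summed T and NK cell markers stood at 6.32, 4.72, 26.7, 4.75 and 7.63 CPM in control tumours 1 to 5 and 60.4, 7.84, 42.1, 32.5 and 10.9 CPM in IL-15 tumours 1 to 5. Against their log2 sum, ULBP2 had r = 0.70 (permutation p = 0.0236, adjusted over 5 ligands 0.118, rho = 0.65, permutation p = 0.0490, adjusted 0.245, n = 10), with r = 0.51 without the 2 farthest tumours. As deviations from the group means, r was 0.49 (permutation p = 0.145, adjusted 0.241). ULBP3 had r = -0.57 (permutation p = 0.0863, adjusted 0.216, rho = -0.52, permutation p = 0.134, adjusted 0.334), with r = -0.32 without the 2 farthest tumours, and -0.66 as deviations (adjusted permutation p = 0.101). RAET1L had r = 0.35 over all tumours and 0.69 as deviations from the group means (permutation p = 0.0287, adjusted 0.101). Over all tumours, MICA (r = 0.11), ULBP1 (0.21) and RAET1L had adjusted permutation p-values from 0.532 to 0.784.

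The first principal component of the 500 most variable genes, added after the values were seen, held 34.9% of their variance, and none of the 5 ligands with a mean of at least 1 CPM is among those genes. ULBP2 followed it with r = 0.80 (permutation p = 0.00468, adjusted over 5 ligands 0.0234) and rho = 0.93 (permutation p = 2.8e-04, adjusted 0.0014), and r was 0.84 without the 2 farthest tumours. As deviations from the group means r was 0.68 (permutation p = 0.0313, adjusted 0.157, n = 10), so the relation did not pass once the group difference was taken out. ULBP1 had r = 0.67 (permutation p = 0.0329, adjusted 0.0823, rho = 0.56, permutation p = 0.0940, adjusted 0.235), with r = 0.32 without the 2 farthest tumours. IL-15 tumours 1, 3 and 4 lay at the high end and had the highest lymphocyte sums, so this axis, that sum and the treatment overlap in part. They came apart in control tumour 1, at 17.2 on the axis with a sum of 6.32 CPM. Control tumour 3 had the lowest place, -37.4, with a sum of 26.7 CPM. The part of the axis, the sum and the treatment in the ULBP2 level was not tested.

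**Figure D4:**
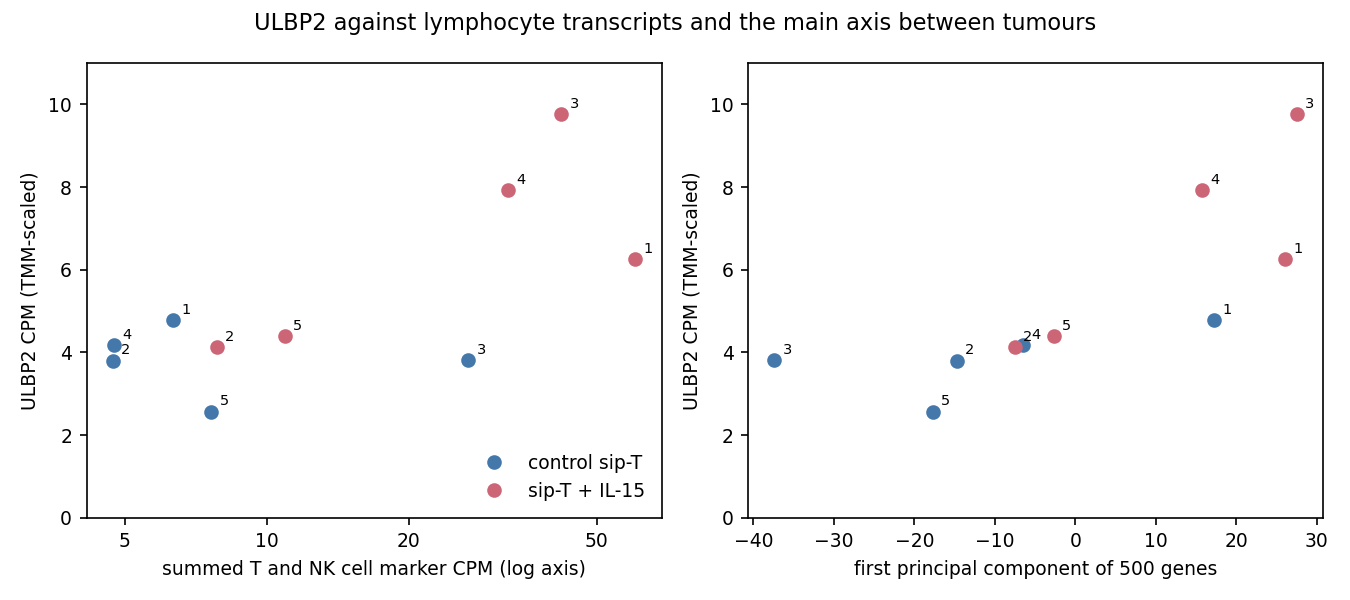
ULBP2 in TMM-scaled CPM (vertical axes) against the summed CPM of T and NK cell markers on a log axis (left) and the first principal component (right), a point per tumour with its replicate number, blue for control sip-T and red for sip-T + IL-15. IL-15 tumours 1, 3 and 4 stand highest in both panels, and control tumour 3, with 26.7 CPM of markers, has a ULBP2 level of 3.82 CPM.

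The protein-coding genes whose levels were most like each ligand were sought among 12921 tested genes by Pearson r of log2 CPM over 10 libraries, as a description. For MICA these were KRT6C (r = 0.97), DQX1 (0.94) and MBD4 (0.92), and for ULBP1 MIOS (0.96), LCA5 (0.95) and WASF3 (0.95). For ULBP2 they were DENND3 (0.95), ERO1B, an oxidase of the endoplasmic reticulum (0.95), and BEX4 (0.94), with log2 fold changes of 0.63 ± 0.29, 1.32 ± 0.39 and 1.09 ± 0.50 (edgeR adjusted p = 0.758, 0.758 and 0.767). For ULBP3 they were RBM33 (0.90), ILDR2 (0.89) and UBE4B (0.89), and for RAET1L TM2D1 (0.90), ARFGAP3 (0.88) and SCPEP1 (0.88). The search takes the highest of many values over few tumours. No gene appeared for more than 1 ligand, which says little where 3 of 12921 genes were kept for each.

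Few reads were counted for the receptor gene. KLRK1 had 1 count in control and 11 in IL-15 tumours over 5 libraries each, 7 of them in IL-15 tumour 1. The readthrough gene KLRC4-KLRK1, which shares its sequence, had 5 in all. How reads shared by both genes were counted is not given, so these counts may understate the receptor transcript. HCST, the DAP10 gene, had 0.304 ± 0.203 CPM without and 0.318 ± 0.0810 CPM with IL-15. TYROBP, which encodes the related adaptor DAP12, had 7 counts, all in control tumours. None of these 3 passed the filter on low counts, and they were not tested.

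No gene that acts on ligand shedding passed the test. Of 9 listed, 6 were tested and 0 called, 4 with fold changes above 0 and 2 below (median log2 fold change 0.15). MMP14, a membrane-bound matrix metalloprotease that cleaves MICA, measured 0.927 ± 0.495 against 1.87 ± 0.649 CPM with IL-15, a log2 fold change of 1.01 ± 0.44 (edgeR adjusted p = 0.758). The sheddase genes ADAM10 and ADAM17 measured 122 ± 40.9 against 107 ± 23.0 CPM and 18.3 ± 1.82 against 21.1 ± 4.66 CPM. TIMP1, an inhibitor of metalloproteases, measured 3.16 ± 2.47 against 9.64 ± 15.9 CPM (log2 fold change 1.60 ± 1.17, edgeR adjusted p = 0.825), and this rested on IL-15 tumour 3, without which the log2 fold change was -0.264.

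Most regulators known to act on ligand genes had fold changes below 0, and none passed. All 21 were tested, 15 below 0 and 6 above, where 49% of all tested genes were above 0. Their median was -0.06 on the log2 scale, beside -0.01 over all tested genes. RELA, a subunit of NF-kB, measured 113 ± 19.6 against 87.1 ± 9.47 CPM (log2 fold change -0.37 ± 0.14, edgeR adjusted p = 0.758), and NFKB1 had -0.47 ± 0.28. CHEK1, a kinase of the DNA damage response, had -0.43 ± 0.20 and HSF1, the heat shock factor, -0.35 ± 0.18. E2F1, which drives the cell cycle, had -0.35 ± 0.26, MYC -0.25 ± 0.23 and the stress factor ATF4 -0.06 ± 0.15. Of 10 targets of the heat shock factor, 6 were above and 4 below 0 and 0 called (median 0.09). The 4 below 0 were HSPA8 (-0.34 ± 0.17), BAG3 (-0.32 ± 0.17), HSPB1 (-0.34 ± 0.28) and HSPA1A (-0.71 ± 0.50). HSPA1A, at 15.5 ± 9.75 against 9.54 ± 4.57 CPM with IL-15, shares reads with its near-identical copy HSPA1B. That copy was more abundant, at 64.9 ± 35.6 against 69.4 ± 9.47 CPM (log2 fold change 0.10 ± 0.29). The fold change of HSPA1A alone is therefore uncertain.

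The 6 genes of GPI anchor addition, on which surface display of ULBP1, ULBP2 and ULBP3 depends, were all tested, with 3 above and 3 below 0 and 0 called (median -0.03). PIGA, of the first step of anchor synthesis, had a log2 fold change of 0.22 ± 0.20, and the transamidase genes PIGK, PIGS and GPAA1 had 0.18 ± 0.15, -0.10 ± 0.12 and -0.23 ± 0.23.

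Several ligands of other NK cell receptors stood above MICA in FPKM, and none passed the test. Of 12 listed genes, 10 were tested and 0 called, 4 above and 6 below 0 (median -0.03). PVR, a ligand of DNAM-1 and TIGIT, stood at 10.5 FPKM and measured 40.6 ± 2.86 against 40.9 ± 8.28 CPM, a difference whose sign changed with the tool. NCR3LG1, which encodes the NKp30 ligand B7-H6, stood at 1.39 FPKM and measured 10.6 ± 4.05 against 9.01 ± 2.36 CPM, and BAG6, another NKp30 ligand gene, stood at 40.3 FPKM with a log2 fold change of -0.15 ± 0.12. HLA-E, the ligand of the NKG2A receptor, stood at 11.9 FPKM with 0.42 ± 0.24, CLEC2D had 0.29 ± 0.25 and the adhesion gene ICAM1 -0.72 ± 0.70.

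B2M, HLA-B and HLA-C, genes of classical MHC class I, whose molecules are relatives of the ligands and restrain NK cells, had fold changes above 0 and none was called. B2M had a log2 fold change of 0.38 ± 0.17, HLA-B 0.72 ± 0.31 and HLA-C 0.32 ± 0.21 (edgeR adjusted p = 0.758, 0.758 and 0.802). The split of reads between HLA paralogs is uncertain. B2M and HLA-B had an unadjusted p under 0.05, as did 3.03% of all tested genes in that direction. Of 6 other class I-like genes 4 were tested, all above 0 and 0 called (median 0.40), with AZGP1, a secreted zinc-binding glycoprotein gene, at 5.88 ± 3.70 against 14.5 ± 9.76 CPM (log2 fold change 1.30 ± 0.68). PROCR, the endothelial protein C receptor gene, had 0.48 ± 0.28 and MR1, which presents vitamin metabolites to MAIT cells, 0.33 ± 0.35. HFE, the haemochromatosis gene, had 0.01 ± 0.29, negative with DESeq2.

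**Figure D5:**
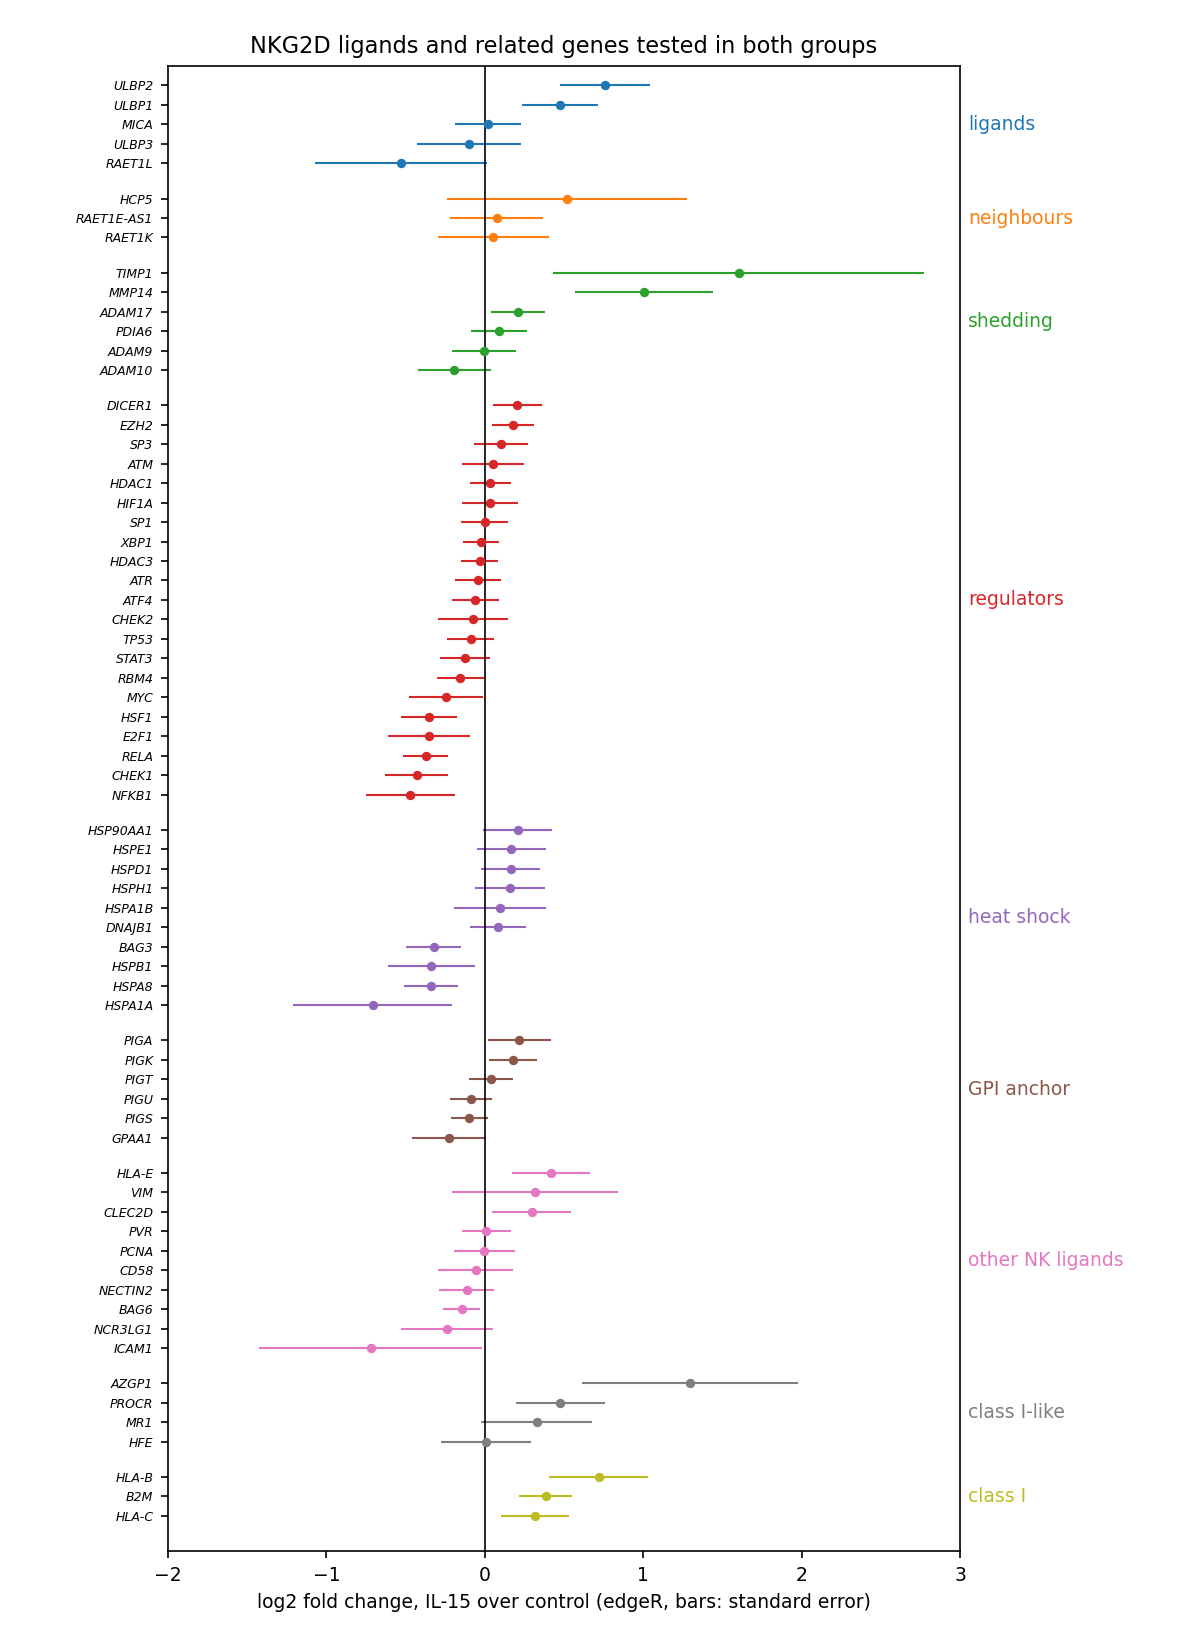
Log2 fold change of IL-15 over control tumours (horizontal axis, edgeR, bars are standard errors) for tested genes of the ligand list and of related lists, grouped by colour. The ligands run from -0.53 for RAET1L to 0.76 for ULBP2, and the regulators lie between -0.47 and 0.21.

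None of the genes that share the ligand loci passed the test. HCP5, which overlaps MICA, measured 1.38 ± 1.23 against 2.00 ± 1.00 CPM (log2 fold change 0.52 ± 0.76), with counts of 0 to 48 where MICA had 100 to 246. The pseudogene RAET1K had 0.05 ± 0.35 and RAET1E-AS1, with 509 counts against the 48 of RAET1E, 0.08 ± 0.29, which was -0.01 with limma voom. The MIC pseudogene MICE had 96 counts and MICD 8, and none was seen for MICG.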

How the data were processed

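RNA of 10 tumours was isolated with TRIzol for Illumina sequencing, according to the labels' protocols. Among the tools in the submitters' processing notes are DESeq2 1.20.0, GATK 4.1.1.0, featureCounts 1.5.0-p3, HISAT2 2.0.5 and fastp, with build hg38 and no roles. Annotation release and strand setting were not given in the sources used here. Raw counts per human gene make up the deposited count table, per the file headers. The deposited FPKM values are the authors', scaled by gene length and by a total for each library. That total, as recovered from the values, was 1.01 (control tumour 3) to 1.24 (IL-15 tumour 3) times the library's total counts. It cancels in ratios within a library, but not in FPKM sums compared between tumours. The labels name mouse as the organism, whereas the genes are human.

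Genes were kept with filterByExpr (minimum count 10), TMM-scaled and tested with edgeR 4.0.16 (quasi-likelihood, robust, R 4.3.3). Exact tests used all assignments or 1024 sign flips, correlations 100000 permutations (Python 3.11.15, scipy 1.17.1). The code was tested on simulated data. Alternatives covered scaling, filter, DESeq2 1.42.0, limma 3.58.1, FPKM, the replicate block, pseudocounts and each library left out. Every one of 45 library pairs differed by more than sampling noise (chi-square over its degrees of freedom 20.4 to 90.3). The ligands, 10 pathway lists and 7 marker lists were chosen with earlier results of these data known. Named genes were all ligands, up to 4 genes with the smallest p of each pathway list, a fixed set of receptor, protease, regulator and NK ligand genes, and the 3 genes most like each ligand. A gene of the related lists is not reported here.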

Additional observations from a re-analysis of the deposited data

How the results depend on the processing

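edgeR or limma called 0 genes in 17 alternatives (other scalings, limma, FPKM, the block or 1 library left out), edgeR called 1 gene without the filter on low counts, and DESeq2 called 15. No ligand was called in any. The replicate numbers did not pair the tumours: the correlation of deviations for same-numbered tumours ran from -0.22 to 0.26, and only control tumour 1 correlated best with its own number. With the replicate block 0 genes were called, and ULBP2 had a log2 fold change of 0.71 (adjusted p = 0.803). In the exact test of single ligands, the sign of the difference reversed for MICA (0.073) and ULBP3 (0.0087) with CPM on library size alone. With each tumour left out the reversing differences spanned MICA (-0.0953 to 0.168), MICB (-0.0282 to 0.716), ULBP3 (-0.239 to 0.0808) and RAET1E (-0.141 to 0.33). Fitted log2 fold changes near 0 reversed with library size alone for ATF4 (0.026), MBD4 (0.0637) and TM2D1 (0.0263), with DESeq2 for HFE (-0.00255), with upper quartile scaling for MBD4 (0.0148), with limma on FPKM for MICA (-0.023), PVR (-0.0275) and RAET1E-AS1 (-0.00198), with the replicate block for MICA (-0.000696) and PVR (-0.0111), with limma voom for PVR (-0.0185) and RAET1E-AS1 (-0.0101). With each tumour left out those that reversed spanned ATF4 (-0.17 to 0.00342), HFE (-0.126 to 0.235), ILDR2 (-0.183 to 0.517), KRT6C (-0.197 to 0.679), MBD4 (-0.154 to 0.0806), MICA (-0.0621 to 0.156), MR1 (-0.00893 to 0.59), PVR (-0.0625 to 0.125), RAET1E-AS1 (-0.194 to 0.231), RAET1K (-0.128 to 0.217), RBM33 (-0.0397 to 0.0997), TIMP1 (-0.264 to 2.02), TM2D1 (-0.117 to 0.0132) and ULBP3 (-0.292 to 0.0683). Against lymphocyte transcripts, ULBP1 turned to r = -0.271 as deviations from the group means. With the first principal component in place of the marker sum, an alternative chosen after seeing the data, RAET1L turned to r = -0.165 and ULBP2 passed the adjusted permutation threshold (r = 0.803). For these reversals the cause was not tested. Depth limits MICB, RAET1E and RAET1G, which had 24, 48 and 94 counts in all.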

Other observations

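Most NK cell markers were scarce, with 3 of 12 abundant enough for the fit, and their counts did not all lie the same way. Of the 12 listed NK cell markers, 8 had more counts in IL-15 and 4 in control tumours, and of the 10 T cell markers 10 had more in IL-15 tumours, beside 48.2% of the 40934 genes with a count. KLRC1, which encodes the inhibitory HLA-E receptor NKG2A, had 1 count in control and 40 in IL-15 tumours over 5 libraries each, and NCR3, which encodes the B7-H6 receptor NKp30, had 0 and 12. KLRD1, the CD94 partner of NKG2A, had 19 and 24. The 4 markers with more counts in control tumours were KLRB1 (14 and 9), NCAM1 (10 and 8), NCR1 (8 and 4) and KLRF1 (2 and 0). Each of these 7 genes was too scarce for the fit, was named here after its values were seen, and has no test.

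TIMP3, an inhibitor of the ligand sheddase ADAM17, had 244 of its 248 counts in IL-15 tumour 2, 3 in IL-15 tumour 3, 1 in IL-15 tumour 4 and none in the other 7 tumours.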
